A study of Homo sapiens with 6 samples.

Results

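The aminoacyl-tRNA synthetases, the enzymes that load amino acids onto transfer RNAs, were followed at the transcript level in HEK293 cells given minocycline. The members were 35 listed genes, 19 for cytosolic and 16 for mitochondrial enzymes, found by symbol among the 57820 genes of the count table, and all 35 were present. HEK293 is a widely used human cell line that was started from embryonic kidney. The treated cells received 100 µM minocycline, a tetracycline antibiotic, for 12 h, and the others received its vehicle, dimethyl sulfoxide (DMSO), for the same time; neither group was heat shocked. RNA was sequenced from 3 biological replicates per group, with a total count of 17303180 to 17835756 per library. A single cell line, dose and time were compared. Values are normalised counts (CPM, each count as a share of its library, with TMM factors that correct for composition). In such bulk samples, fewer cells that express a gene and less of its RNA per cell cannot be told apart.

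Each synthetase joins a particular amino acid to its transfer RNAs, and for most amino acids the human genome holds separate nuclear genes for the cytosolic and the mitochondrial enzyme. Several cytosolic synthetases are held together in the multisynthetase complex. Uncharged transfer RNA activates the kinase GCN2, and the transcription factor ATF4, which acts downstream of it, is known to bind C/EBP-ATF response elements at amino acid synthesis, transport and synthetase genes. Drugs of the tetracycline class bind bacterial and mitochondrial ribosomes.

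Promoters are shown first, because 7 of the cytosolic genes hold letters that match the core of that response element in a window around an annotated start. Whether ATF4 acts on these genes here was not tested. The windows came from RefSeq (GRCh38.p14) and ran from 250 bases before to 50 bases after the start; 30 of the 35 members had at least one, and LARS1, VARS1, YARS1, AARS2 and VARS2 had none. The motif searched was TGATGNAA on both strands, read as TTNCATCA on the opposite one, and it was chosen with the results of these genes known. Capitals mark the match. The whole windows of MARS1 (chr12:57487818-57488117, plus strand) and GARS1 (chr7:30594628-30594927, plus strand), the cytosolic genes with the smallest p, stand beside that of IARS2 (chr1:220093882-220094181, plus strand), a mitochondrial gene with no match. In each of these genes every minocycline library lay above every vehicle library.
MARS1: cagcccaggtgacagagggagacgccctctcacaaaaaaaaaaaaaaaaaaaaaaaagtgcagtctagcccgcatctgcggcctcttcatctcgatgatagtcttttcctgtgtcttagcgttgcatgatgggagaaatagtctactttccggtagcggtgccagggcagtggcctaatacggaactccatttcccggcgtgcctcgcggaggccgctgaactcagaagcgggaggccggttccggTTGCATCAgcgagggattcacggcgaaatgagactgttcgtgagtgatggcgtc
GARS1: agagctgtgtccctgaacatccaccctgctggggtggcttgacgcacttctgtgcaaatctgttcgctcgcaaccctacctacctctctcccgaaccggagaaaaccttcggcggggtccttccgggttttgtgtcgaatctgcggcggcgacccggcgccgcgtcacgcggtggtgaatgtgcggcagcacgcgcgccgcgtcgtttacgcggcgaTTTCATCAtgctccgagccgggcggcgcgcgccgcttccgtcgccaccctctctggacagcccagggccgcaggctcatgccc
IARS2: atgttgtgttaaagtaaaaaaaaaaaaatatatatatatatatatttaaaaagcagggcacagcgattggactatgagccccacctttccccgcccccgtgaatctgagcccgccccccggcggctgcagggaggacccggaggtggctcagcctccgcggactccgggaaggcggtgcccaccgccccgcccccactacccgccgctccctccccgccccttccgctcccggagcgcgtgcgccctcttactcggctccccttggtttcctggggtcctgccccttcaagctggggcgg

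The other matches are shown with the bases around them, for the remaining cytosolic genes and for YARS2, the mitochondrial gene with a match. They lie at chr11:3057392-3057451 for CARS1, chr16:70289660-70289719 for AARS1, chr9:92293677-92293736 for IARS1, chr5:33440941-33441000 for TARS1, chr18:57621789-57621848 for NARS1 and chr12:32756061-32756120 for YARS2. TARS1 is on the plus strand and the others on the minus strand, and each is printed along its gene.
CARS1: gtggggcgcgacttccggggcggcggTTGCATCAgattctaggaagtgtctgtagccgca
AARS1: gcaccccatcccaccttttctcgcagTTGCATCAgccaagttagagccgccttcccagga
IARS1: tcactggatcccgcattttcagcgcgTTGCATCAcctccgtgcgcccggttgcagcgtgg
TARS1: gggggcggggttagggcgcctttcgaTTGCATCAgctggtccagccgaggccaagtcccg
NARS1: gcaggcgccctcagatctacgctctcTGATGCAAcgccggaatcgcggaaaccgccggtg
YARS2: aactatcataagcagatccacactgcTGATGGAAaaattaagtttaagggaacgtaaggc

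In CARS1, IARS1, MARS1 and TARS1 the match had the same 8 letters, TTGCATCA, and began 2, 13 and 4 bases before the start in CARS1, IARS1 and MARS1 and 2 bases after it in TARS1. In AARS1 the same letters began 187 bases before the start. NARS1 held them in the other orientation, as TGATGCAA, 14 bases after the start. GARS1 held TTTCATCA 33 bases before one of its 2 annotated starts, and the window of the other start had no match; CARS1 and TARS1 likewise held a match in 1 of 2 windows. A match was present in 7 of the 16 cytosolic genes with a window, in 1 of the 14 mitochondrial genes with a window, and in 4.46% of all genes with a window (3.62% of windows). These matches are a description of letters and were not tested as binding sites.

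Minocycline libraries held more cytosolic synthetase transcripts. Among the 18 cytosolic genes with measurable counts, 12 had all 3 minocycline libraries above all 3 vehicle libraries, an arrangement seen in 5.74% of the 17225 genes tested. The other 6 overlapped between groups. By the fitted value, 13 of the 18 were above 0, against 52.1% of all genes. The median log2 fold change of the 18 genes was 0.48, against 0.01 over all genes tested. Among 15 mitochondrial genes, VARS2 set apart, 1 had such an arrangement, 14 overlapped, and the median was 0.00. Summed over the 18 cytosolic genes, the level was 4235, 4387 and 4317 CPM in the minocycline libraries, against 3187, 3230 and 3342 CPM in the vehicle libraries. The sum of the 15 mitochondrial genes was 768, 765 and 721 CPM with minocycline and 713, 712 and 759 CPM with vehicle. The cytosolic sums thus stood apart by group and the mitochondrial sums overlapped.

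Gene by gene, the evidence was weaker. With edgeR's quasi-likelihood test, 0 of the 18 cytosolic genes had a Benjamini-Hochberg adjusted p under 0.05, where 0.0522% of all genes tested did. At an unadjusted p under 0.05 there were 12 cytosolic genes, all higher with minocycline, against 2.72% of all genes in that direction. DESeq2 called 5 of the 18 (YARS1, GARS1, CARS1, MARS1 and AARS1) and limma-voom called GARS1 and MARS1, where these tools called 0.285% and 0.0639% of all genes. Under library size scaling 2 passed (0.0755% of all genes), with no filter on low counts 5 (0.280%), with at least 10 counts in every library 2 (0.0708%), and with a length and GC correction plus the replicate block 2 (0.215%). RLE and upper-quartile scaling and the replicate block gave 0, where 0.0464%, 0.0581% and 0.0755% of all genes were called. GARS1 and MARS1 missed the threshold at an adjusted p of 0.0523, with log2 fold changes of 0.86 ± 0.12 and 0.91 ± 0.12 (SE).

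**Figure D1:**
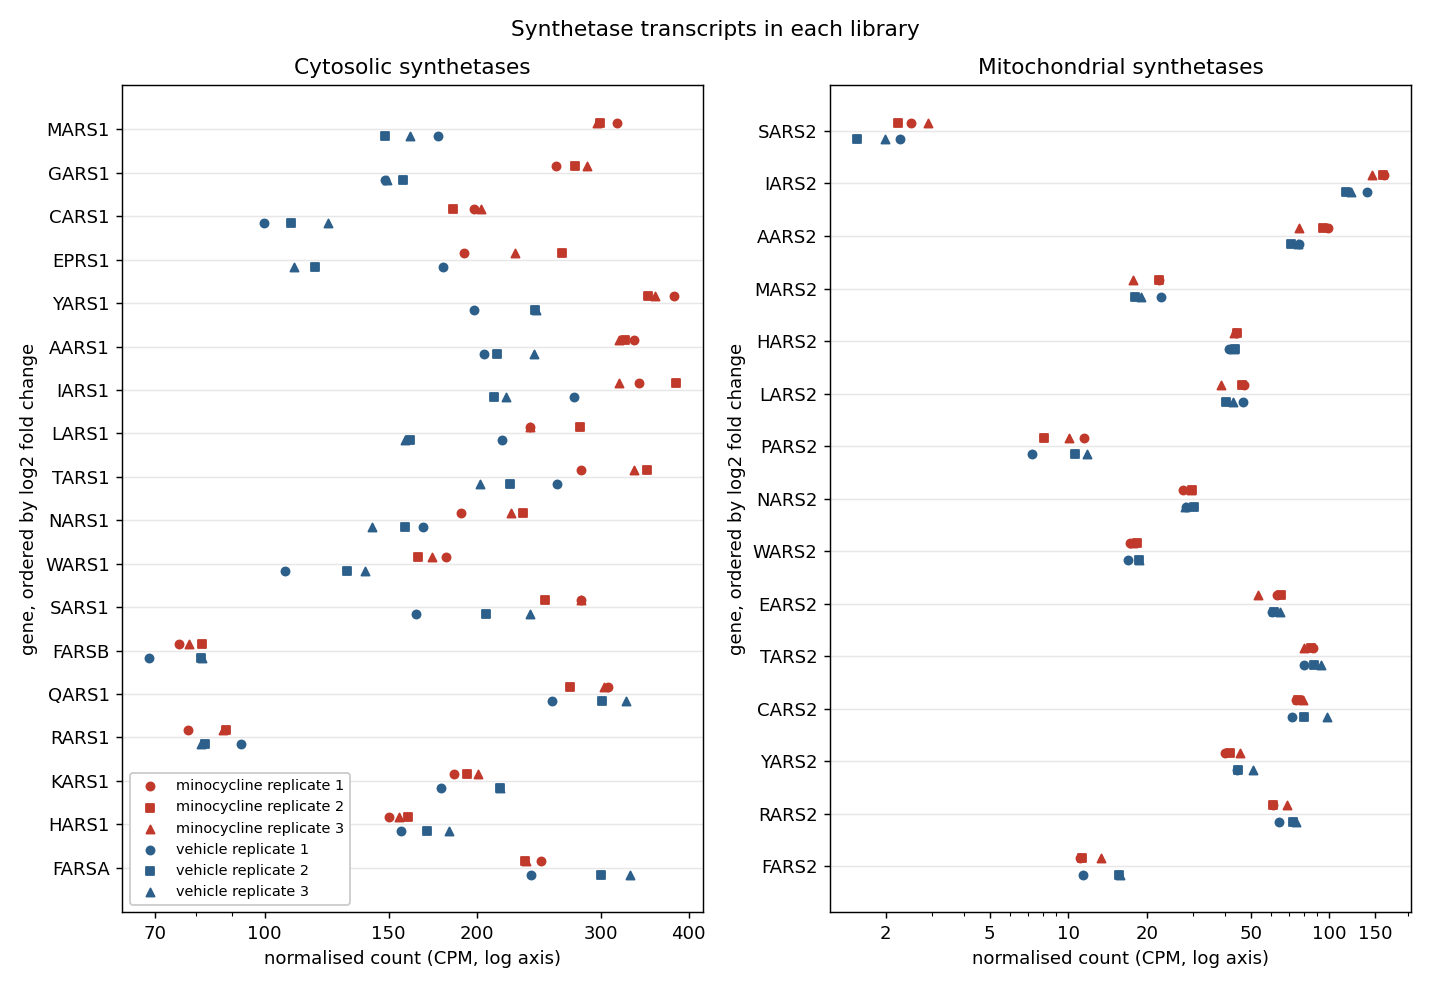
Normalised count (CPM, log axis) of each synthetase gene in each of the 6 libraries, cytosolic genes on the left and mitochondrial genes on the right, ordered by log2 fold change; VARS1 and VARS2 are left out. Marker shape gives the replicate number. In the upper 12 cytosolic genes every minocycline library lies to the right of every vehicle library, and among the mitochondrial genes this holds for IARS2.

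Of the cytosolic enzymes that work outside the multisynthetase complex, 8 of 11 had separated groups. GARS1, whose single gene gives both the cytosolic and the mitochondrial glycyl-tRNA synthetase, had 259, 276 and 287 CPM in minocycline libraries 1, 2 and 3, against 148, 157 and 149 CPM in vehicle libraries 1, 2 and 3. The vehicle libraries lay close together, and the lowest minocycline library was well above them. CARS1, the cysteinyl enzyme, had 198, 185 and 203 CPM with minocycline and 99.7, 109 and 123 CPM with vehicle, a log2 fold change of 0.82 ± 0.13 (adjusted p = 0.0991, edgeR). YARS1, the tyrosyl enzyme, part of which can act as a secreted signal, had 381, 350 and 358 CPM with minocycline and 198, 242 and 243 CPM with vehicle. Its log2 fold change was 0.67 ± 0.13 (adjusted p = 0.275, edgeR), and the gap between the groups was wider than the range within either.

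AARS1, the alanyl enzyme, had 335, 325 and 318 CPM with minocycline and 205, 214 and 241 CPM with vehicle. Its minocycline libraries differed little among themselves, and the log2 fold change was 0.57 ± 0.12 (adjusted p = 0.394, edgeR). NARS1, the asparaginyl enzyme, had 190, 233 and 224 CPM with minocycline and 168, 158 and 142 CPM with vehicle, so that minocycline replicate 1 stood nearest to the vehicle libraries. WARS1, SARS1 and TARS1, the tryptophanyl, seryl and threonyl enzymes, also separated, with log2 fold changes of 0.46 ± 0.14, 0.42 ± 0.16 and 0.49 ± 0.15. In SARS1 the lowest minocycline library had 250 CPM and the highest vehicle library 238 CPM, a narrow gap. Those values were 281 and 260 CPM in TARS1, and 165 and 139 CPM in WARS1. WARS1 is otherwise known as a gene induced by interferon gamma. The adjusted p of NARS1, WARS1, SARS1 and TARS1 was 0.820 in each case (edgeR).

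The 7 measured members of the multisynthetase complex divided into 4 with separated groups and 3 without. MARS1, the methionyl enzyme, had 316, 299 and 296 CPM with minocycline and 176, 148 and 161 CPM with vehicle. This was the largest log2 fold change among the 33 genes compared, and no vehicle library came near the minocycline libraries. The end of MARS1 shares 355 exon bases with DDIT3, which encodes the stress factor CHOP on the opposite strand, 5.05% of the exon length of MARS1, and 519 with ARHGAP9, which had a mean of 11.2 counts. The sources at hand do not state whether reads were counted by strand, and the level of MARS1 carries that uncertainty. Others of the 12 separated genes also share parts of their exons with genes on the opposite strand, among them WARS1 with WDR25 (4.52%), YARS1 with S100PBP (4.05%) and GARS1 with GARS1-DT (1.80%). DDIT3 was far lower, at a mean of 24.1 ± 6.93 CPM with minocycline and 18.1 ± 6.81 CPM with vehicle (SD, n = 3 each), where MARS1 had 304 ± 10.8 and 162 ± 14.3 CPM. The bases shared with MARS1 are 27.16% of the exon length of DDIT3, so the level of DDIT3 carries the same uncertainty.

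EPRS1, a fused enzyme that charges both glutamate and proline transfer RNAs, had 192, 264 and 227 CPM with minocycline and 179, 118 and 110 CPM with vehicle. Vehicle replicate 1 lay only narrowly below minocycline replicate 1, and the log2 fold change was 0.75 ± 0.20 (adjusted p = 0.820, edgeR). IARS1, the isoleucyl enzyme, had 340, 384 and 318 CPM with minocycline and 275, 212 and 220 CPM with vehicle. LARS1, the leucyl enzyme that also serves as a leucine sensor for the growth kinase mTORC1, had 238, 280 and 238 CPM with minocycline and 217, 161 and 158 CPM with vehicle. In IARS1 and LARS1, as in EPRS1, vehicle replicate 1 was the highest of the vehicle libraries and lay nearest to the minocycline libraries. Their log2 fold changes were 0.56 ± 0.15 and 0.49 ± 0.16 (adjusted p = 0.820 for both, edgeR).

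KARS1, QARS1 and RARS1, the lysyl, glutaminyl and arginyl enzymes of the same complex, overlapped between groups. QARS1 had 307, 271 and 303 CPM with minocycline and 256, 301 and 326 CPM with vehicle. KARS1, a gene that like GARS1 serves both compartments, had 186, 194 and 201 CPM with minocycline and 178, 216 and 216 CPM with vehicle. RARS1 had 77.9, 88.3 and 87.3 CPM with minocycline and 92.7, 82.2 and 81.2 CPM with vehicle. Their log2 fold changes of 0.00 ± 0.14, -0.07 ± 0.13 and -0.01 ± 0.12 were all smaller than their standard errors.

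Outside the complex, the phenylalanyl enzyme's subunits FARSA and FARSB and the histidyl enzyme HARS1 overlapped as well. FARSB had 75.6, 81.6 and 78.1 CPM with minocycline and 68.5, 81.3 and 81.6 CPM with vehicle, a log2 fold change of 0.02 ± 0.13. FARSA, which pairs with FARSB in the same enzyme, had 247, 234 and 235 CPM with minocycline and 239, 300 and 330 CPM with vehicle. Its log2 fold change was -0.28 ± 0.14 (adjusted p = 0.820, edgeR), and the vehicle libraries were spread more widely than the minocycline libraries. HARS1 had 150, 160 and 155 CPM with minocycline and 156, 170 and 183 CPM with vehicle, a log2 fold change of -0.13 ± 0.12. By structural class, 6 of 8 class I and 5 of 9 class II cytosolic genes had separated groups, with median log2 fold changes of 0.53 and 0.42; EPRS1 holds a part of each class and was left out of this count.

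**Figure D2:**
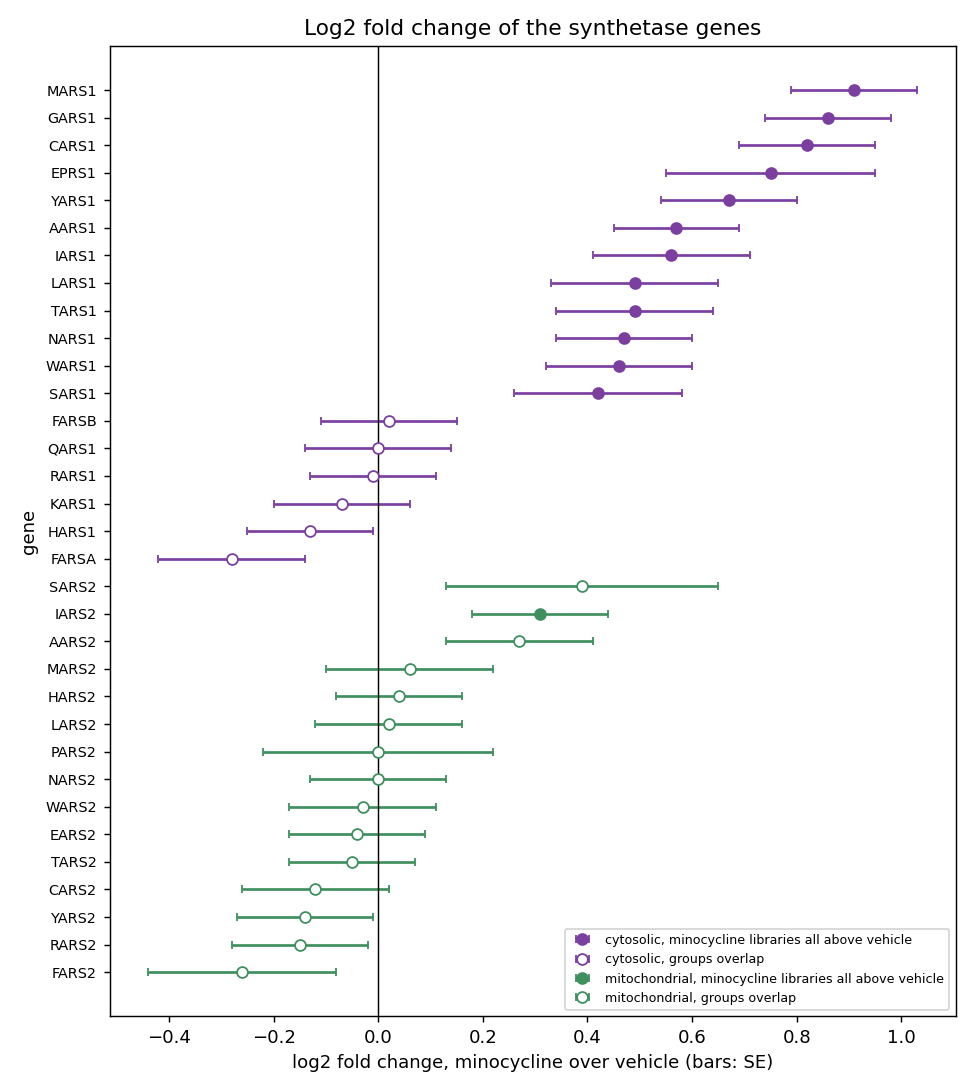
Log2 fold change of each synthetase gene, minocycline over vehicle, with its standard error from edgeR's fit (3 libraries per group). Filled points are genes whose minocycline libraries all lie above the vehicle libraries. The 12 filled cytosolic genes run from 0.42 to 0.91 and the 6 open ones from -0.28 to 0.02, and the mitochondrial genes run from -0.26 to 0.39.

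The promoter matches and the separated genes can be set side by side. All 7 cytosolic genes with a match (MARS1, GARS1, CARS1, AARS1, IARS1, TARS1 and NARS1) were among the 12 with separated groups. Of these 12, LARS1 and YARS1 had no window, and EPRS1, WARS1 and SARS1 had windows with no match. FARSA, FARSB, HARS1, KARS1, QARS1 and RARS1, whose groups overlapped, had 1 window each and 0 matches. The separated genes CARS1, GARS1, TARS1, WARS1 and SARS1 had 2 windows each. More sequence was therefore searched in those genes, and the counts of matches are not like for like. Among the mitochondrial genes, IARS2 had separated groups and a window with 0 matches. YARS2 held a match and overlapped between groups, at a log2 fold change of -0.14 ± 0.13. The motif was chosen with these values known, so the correspondence is a description without a test.

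Libraries differed in ways that crossed the groups, and some synthetase genes moved with this. On the first principal component, with 52.9% of the variance, vehicle replicate 1 stood at -34.89, beside minocycline replicates 1 and 2 at -14.04 and -32.26, while minocycline replicate 3 stood at 3.06 and vehicle replicates 2 and 3 at 31.08 and 47.05. Compared with the mean of vehicle replicates 2 and 3 on the log2 scale, vehicle replicate 1 was higher by 0.65 in EPRS1, 0.44 in LARS1, 0.35 in IARS1 and 0.29 in TARS1. In SARS1, FARSA, WARS1 and YARS1 that difference was -0.44, -0.39, -0.33 and -0.29. EPRS1, LARS1 and IARS1 have transcripts of 4862, 4760 and 4483 bases, and SARS1 and FARSA have transcripts of 1914 and 1811 bases. Not every gene followed length. FARSB, the longest at 6761 bases, had a difference of -0.25. TARS1 and WARS1, at 2672 and 2639 bases, went in opposite directions. Over the 18 cytosolic genes, which share these libraries, the difference correlated with log2 transcript length at r = 0.52, and length correlated with the log2 fold change at r = 0.30. The part of this in the results was not tested beyond the following fits.

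Without vehicle replicate 1, edgeR called 11 cytosolic genes as higher and 1, FARSA, as lower (-0.40 ± 0.11, adjusted p = 0.0230), where 9.52% and 8.34% of all genes were called in these directions. SARS1 was the separated gene that did not pass there (0.29 ± 0.12, adjusted p = 0.105). The log2 fold change of EPRS1 was then 1.00 ± 0.14 and that of LARS1 0.66 ± 0.12. With any of the other 5 libraries left out, 0 cytosolic genes passed, where 0.0225% (vehicle 2), 0.0508% (vehicle 3), 0.00566%, 0.0454% and 0.00565% (minocycline 1, 2 and 3) of all genes were called. Over all 6 such fits the median of the 18 stayed between 0.45 and 0.54. With 1 surrogate variable in the model 9 passed, all higher (0.482% of all genes in that direction), including SARS1 at 0.60 ± 0.08 (adjusted p = 0.00222). With a per-library correction for exon length and GC content, MARS1 passed (0.167% of all genes) and the median of the 18 genes was 0.40. That length covers all annotated exons of a gene, which is not the transcript length used above. In GARS1 it is 17366 bases, against 2437 for the canonical transcript.

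The labels give each library a batch number, the same as its replicate number, and the 12 separated genes were higher with minocycline in each batch by construction. Over all 18 cytosolic genes the median log2 difference was 0.22, 0.54 and 0.47 in batches 1, 2 and 3, and 16, 14 and 13 genes were higher. For the 15 mitochondrial genes the medians were 0.05, -0.02 and -0.12. A high vehicle replicate 1 lowers the difference in batch 1 by construction, as in EPRS1 (0.10, 1.16 and 1.04 in batches 1, 2 and 3) and LARS1 (0.13, 0.79 and 0.59). GARS1 and MARS1 differed by similar amounts in every batch, by 0.81, 0.81 and 0.94 and by 0.84, 1.01 and 0.87.

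Among the mitochondrial enzymes, 0 of the 16 genes passed with edgeR's test, as did 0 with DESeq2 and 0 with limma-voom, and 2 had an unadjusted p under 0.05. These were IARS2, which was higher, and VARS2, which was lower, where 1.97% of all genes were in that direction. IARS2, the isoleucyl enzyme, had 162, 160 and 146 CPM with minocycline and 139, 116 and 121 CPM with vehicle, a log2 fold change of 0.31 ± 0.13 (adjusted p = 0.820, edgeR). The gap between its groups was small beside the spread of its vehicle libraries, and it passed without vehicle replicate 1 (adjusted p = 0.0275). AARS2, the alanyl enzyme, had 98.8, 94.5 and 76.2 CPM with minocycline and 76.4, 71.4 and 75.7 CPM with vehicle. Minocycline replicate 3 lay within the vehicle range in AARS2, so the groups overlapped.

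FARS2, the phenylalanyl enzyme, which unlike the cytosolic form works as a single chain, had 11.1, 11.3 and 13.4 CPM with minocycline and 11.4, 15.6 and 15.8 CPM with vehicle. SARS2, the seryl enzyme, had 46, 41 and 51 counts with minocycline and 42, 26 and 33 counts with vehicle, the lowest level outside the valyl genes. Of its exon length 48.16% is shared with another annotated gene on the same strand that had a mean of 0 counts, so the level of SARS2 is uncertain. The other 11 mitochondrial genes (CARS2, EARS2, HARS2, LARS2, MARS2, NARS2, PARS2, RARS2, TARS2, WARS2 and YARS2) all overlapped between groups, with log2 fold changes from -0.15 in RARS2 to 0.06 in MARS2. The standard errors of these 11 were 0.12 to 0.22, so that differences of that size were not detectable here. EARS2, which charges the mitochondrial glutamate and glutamine transfer RNAs, was among them at -0.04 ± 0.13, and PARS2, the prolyl enzyme, was the least precise at 0.00 ± 0.22.

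The valyl genes were set apart. VARS1 had 0, 0 and 1 counts in the minocycline libraries and 0 in each vehicle library, so it did not pass the filter on low counts and gives no comparison. VARS2 had 2, 14 and 2 counts with minocycline and 82, 147 and 30 counts with vehicle. All 3 minocycline libraries were below the vehicle libraries, as in 3.56% of all genes (9.31% had groups that did not overlap in either direction). It passed the filter through its vehicle libraries, so that its direction follows in part from that filter, and its fitted log2 fold change of -3.89 ± 0.74 (adjusted p = 0.248, edgeR) rests on few counts. With the batch as a replicate block it passed (-4.01 ± 0.41, adjusted p = 0.00177, where 0.00581% of all genes passed as lower), and this was the single synthetase call that differed between the fits with and without the block alone. When the block was added to the length and GC correction, CARS1 passed as well (adjusted p = 0.0193 with the block and 0.136 without it, edgeR). VARS2 also passed without vehicle replicate 3 (-4.29 ± 0.59, adjusted p = 0.0398, edgeR). VARS1 and VARS2 both lie on chromosome 6, in GRCh37 between 30881982 and 31763529. Of the 50 protein-coding genes starting in that stretch 33 had a mean under 1 count, or 66.0%, against 20.7% of the 938 elsewhere on the chromosome. The level of VARS2 is therefore uncertain, and neither gene entered the medians and sums.

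Dividing the cytosolic by the mitochondrial count for one amino acid within a library removes any scaling between libraries. Differences between libraries that move the 2 genes unequally remain, as in the glutamate pair, with vehicle at 1.56, 0.94 and 0.76. Of 14 such pairs, valine left out, 10 had a higher ratio in every minocycline library than in every vehicle library, 1 had a lower ratio in each and 3 overlapped. No share over all genes is defined for such ratios. The mitochondrial median was 0.00, so these counts largely repeat the cytosolic separation given above. The median change in the log2 ratio was 0.48. With 3 libraries against 3 the smallest two-sided exact permutation p is 0.1, so the pairs are given as values. For cysteine (CARS1 over CARS2) the log2 ratio was 1.41, 1.28 and 1.36 with minocycline and 0.47, 0.45 and 0.32 with vehicle, a difference of 0.94 ± 0.06 (SE). The cytosolic count of this pair was thus more than its mitochondrial partner in every library, and the spread within each group was small beside the difference.

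For methionine (MARS1 over MARS2) the log2 ratio was 3.83, 3.74 and 4.06 with minocycline and 2.97, 3.03 and 3.08 with vehicle. For tyrosine (YARS1 over YARS2) it was 3.25, 3.06 and 2.98 with minocycline and 2.15, 2.44 and 2.25 with vehicle. These pairs differed by 0.85 ± 0.10 and 0.82 ± 0.11 between groups. The glutamate pair (EPRS1 over EARS2) differed by 0.81 ± 0.28, with minocycline replicate 1 at 1.60 and vehicle replicate 1 at 1.56, and the threonine pair (TARS1 over TARS2) by 0.55 ± 0.20, with 1.70 in both of those libraries. In these pairs the separation is therefore marginal. The isoleucine pair (IARS1 over IARS2), in which both genes were higher with minocycline, differed by 0.25 ± 0.07.

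HARS1 and HARS2 are neighbours on chromosome 5 that face away from each other, and their promoter windows share 184 bases. Their ratio was the one that was lower with minocycline, at 1.77, 1.86 and 1.84 with minocycline and 1.92, 1.96 and 2.09 with vehicle, a difference of -0.17 ± 0.06. HARS2 itself had 44.0, 44.1 and 43.3 CPM with minocycline and 41.3, 43.6 and 43.0 CPM with vehicle, and neither gene passed any test. The exons of HARS1 and HARS2 share 108 bases on opposite strands, and HARS1 shares 1090 with WDR55. The overlapping pairs were arginine, serine and phenylalanine (RARS1 over RARS2, SARS1 over SARS2, FARSA over FARS2), with differences of 0.14 ± 0.14, 0.04 ± 0.28 and -0.02 ± 0.11.

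**Figure D3:**
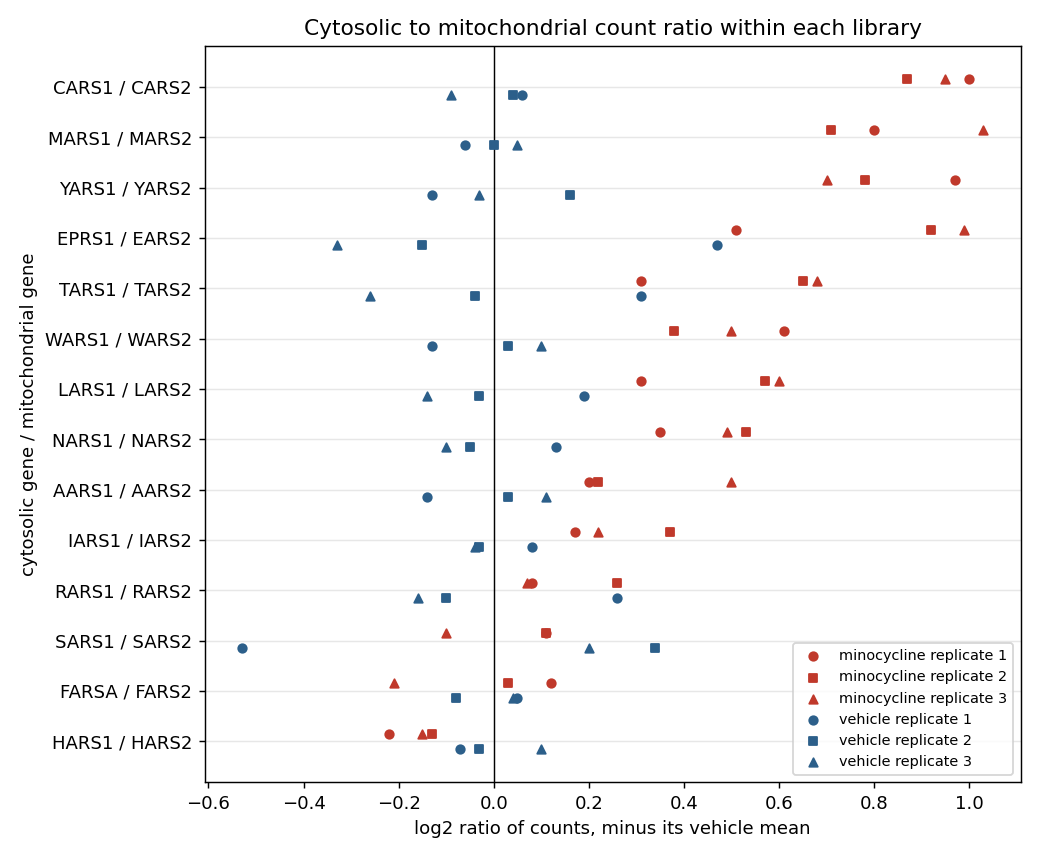
Log2 ratio of the cytosolic to the mitochondrial count for 14 amino acids in each of the 6 libraries, with the mean of the 3 vehicle libraries set to 0 for each pair. Marker shape gives the replicate number. The cysteine pair lies 0.94 to the right on average with minocycline, and in the histidine pair, with a difference of -0.17, all minocycline points lie to the left of the vehicle points.

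Levels between genes were compared per length, as CPM per kilobase of the canonical transcript. The median over the 18 cytosolic genes was 87.2 with minocycline and 60.0 with vehicle, and over the 15 mitochondrial genes it was 11.7 with minocycline and 12.0 with vehicle. In vehicle libraries FARSA had the highest level at 160 ± 25.5 and SARS2 the lowest at 1.01 ± 0.191 CPM per kilobase (SD, n = 3). The mitochondrial genes with the highest levels were CARS2, at 41.6 ± 1.31 with minocycline and 45.4 ± 7.37 with vehicle, and IARS2, at 44.1 ± 2.40 with minocycline and 35.5 ± 3.46 with vehicle. CARS2 stood above CARS1, RARS1, LARS1, EPRS1 and FARSB in vehicle libraries, and CARS1, at 71.3 ± 3.44 with minocycline and 40.4 ± 4.19 with vehicle, stood above CARS2 with minocycline. FARSB stood among the mitochondrial genes at 11.6 ± 0.445 with minocycline and 11.4 ± 1.10 with vehicle. Its canonical transcript is the longest of the 33, at 6761 bases, and the value per kilobase rests on that length.

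With minocycline the order among the cytosolic genes differed. YARS1 was the fifth of 33 genes with vehicle, at 93.2 ± 10.6 CPM per kilobase, and the first with minocycline, at 149 ± 6.52. SARS1 followed at 141 ± 9.30 and FARSA at 132 ± 3.94 with minocycline, and neighbours this close do not differ beyond their spread. GARS1, at 112 ± 5.72 with minocycline and 62.1 ± 1.95 with vehicle, and MARS1, at 109 ± 3.87 with minocycline and 57.8 ± 5.11 with vehicle, stood side by side in either group. KARS1 ranked 8 with minocycline and 4 with vehicle, and HARS1 ranked 10 with minocycline and 6 with vehicle, while their own levels overlapped between groups.

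**Figure D4:**
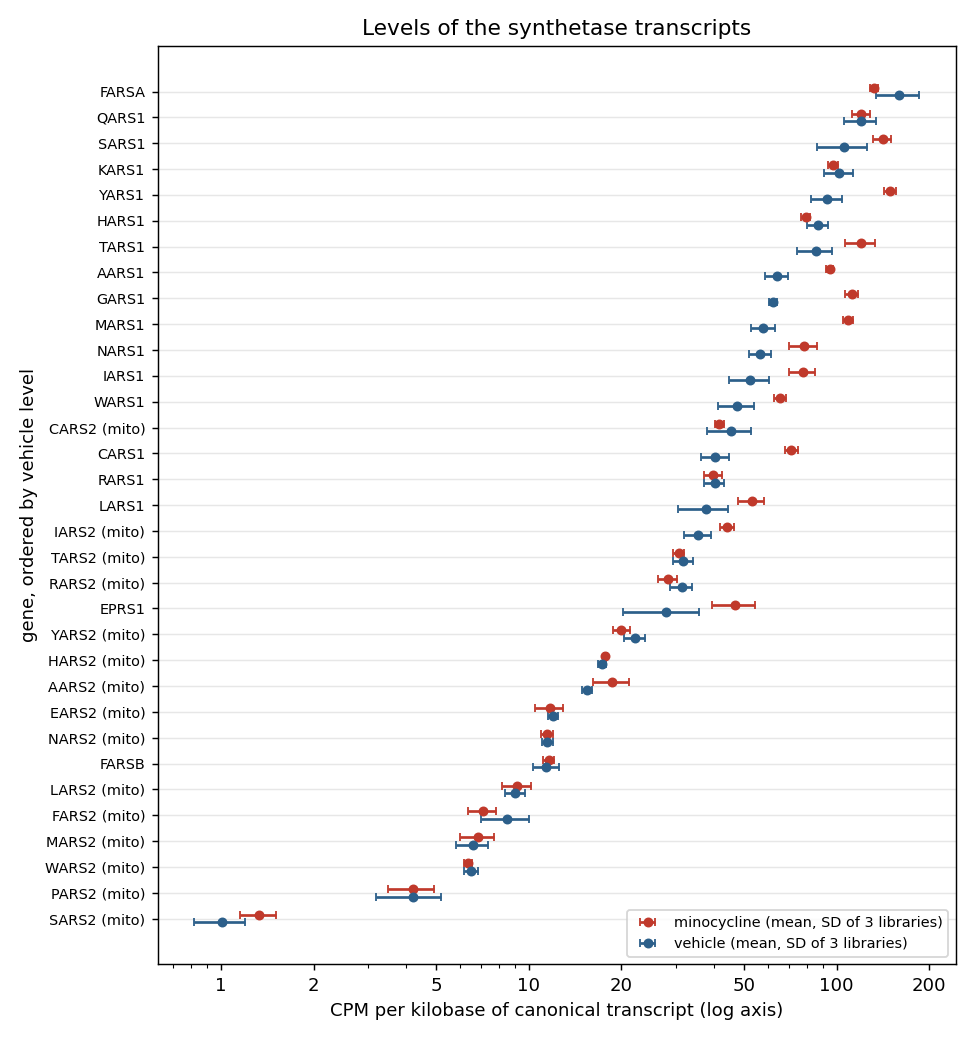
Level of each synthetase transcript as CPM per kilobase of its canonical transcript (log axis; mean and SD of 3 libraries), ordered by the vehicle level; mitochondrial genes are marked. The cytosolic genes fill the upper range, with FARSA highest in vehicle at 160, and SARS2 is the lowest gene at 1.01.

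Genes that work with the synthetases were counted from a list of 16. These hold the scaffold proteins of the multisynthetase complex (AIMP1, AIMP2 and EEF1E1), the mitochondrial amidotransferase that makes glutaminyl-tRNA (QRSL1, GATB and GATC), the formyltransferase MTFMT, the selenocysteine enzymes PSTK and SEPSECS, and the proofreading factors AARSD1, DTD1 and DTD2. The nuclear export receptor XPOT, the synthetase-like gene TARS3, and the sensors of uncharged transfer RNA EIF2AK4 (GCN2) and GCN1 complete the list. None of the 16 passed in edgeR's test, 1 had an unadjusted p under 0.05, DESeq2 called 1 and limma-voom 0, and the median log2 fold change was -0.01. That gene was XPOT, which carries transfer RNAs out of the nucleus, at 283, 287 and 280 CPM with minocycline and 210, 162 and 155 CPM with vehicle (0.69 ± 0.14, adjusted p = 0.349, edgeR). XPOT was the only one of the 16 with separated groups, and its minocycline libraries were nearly equal. Over all genes tested 5.74% were separated in that direction, 2.72% had an unadjusted p under 0.05 as higher and 0.285% were called by DESeq2, so that 1 of 16 is near the background for separation.

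The next genes by p were SEPSECS (0.40 ± 0.20) and AARSD1 (0.51 ± 0.25), whose groups overlapped. SEPSECS had 9.18, 9.57 and 8.57 CPM with minocycline and 8.59, 6.03 and 5.98 CPM with vehicle, and AARSD1 had 5.68, 6.42 and 3.83 CPM with minocycline and 4.18, 3.88 and 3.14 CPM with vehicle. The complex scaffolds showed 0.10 ± 0.19 for AIMP1, -0.14 ± 0.15 for AIMP2 and -0.07 ± 0.19 for EEF1E1, and all overlapped between groups. EIF2AK4 and GCN1 showed -0.05 ± 0.13 and 0.08 ± 0.20.

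Markers were used to check the cell line. Of 6 transcripts listed for HEK293, the 5 that matched (VIM, KRT8, KRT18, NEFM and PAX2) were present in all libraries and summed to 1477 to 1748 CPM with minocycline and 1350 to 2066 CPM with vehicle. Of 6 markers of other cell types 5 matched, and their sum was 53.3 to 70.2 CPM with minocycline and 72.8 to 81.2 CPM with vehicle. Nearly all of it was the collagen gene COL1A1, with 927 to 1428 counts per library, whereas PTPRC, CD3E, ALB and HBB had 0 to 4 counts.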

How the data were processed

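The authors deposited whole-number counts per gene for 6 libraries, unnormalized, in a single table. Per the submitters' processing notes the build was hg19; the aligner, the counting program, its annotation, RNA selection and strand use are not given in the sources used here. Symbols matched 55538 of 57820 identifiers. Total counts were 17303180 to 17835756.

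Genes were filtered with filterByExpr and tested with edgeR 4.0.16 (TMM factors, glmQLFit and glmQLFTest, R 4.3.3) over 17225 genes, minocycline against vehicle, with Benjamini-Hochberg adjustment and a threshold of 0.05. SE is the log2 fold change divided by the square root of F. Ratios of counts had 0.5 added. Transcript lengths, overlaps and GRCh37 positions came from GENCODE; promoter windows came from RefSeq (GRCh38.p14). The fits were also run on simulated counts with known changes. Those counts were drawn independently for each gene and library, with no pattern shared across the genes of a library. The simulation is therefore no check on the differences between libraries described above.

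Alternatives were DESeq2 1.42.0, limma-voom (limma 3.58.1), scaling by library size alone, by RLE or by upper quartile, 2 other filters, a replicate block, a length and GC correction (splines, 4 degrees of freedom) with and without the block, 1 surrogate variable (sva 3.50.0) and leaving out each library. The labels carry a batch number equal to the replicate number, and the pairing rests on that label alone. Deviations of same-numbered libraries correlated at -0.05, -0.29 and 0.30, so the data show no shared batch deviation in every pair. Chi-square over its degrees of freedom was 6.19 to 70.7 between libraries of a group, so none was a mere copy or resequencing of another. These values cannot tell separate cultures from separate preparations of the same RNA. The submitters call the replicates biological; whether they were separate cultures is not stated, and p-values measure the spread between these libraries.

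The members, the lists and the motif were chosen with earlier results of these data known. Values in every library are given by a rule: the 8 cytosolic and 5 mitochondrial members with the smallest p, the 4 cytosolic members with the largest p, pair members under discussion, the valyl genes and 3 partner genes. FARSA, HARS1 and LARS1 were added after their values were seen, as were the sequences of TARS1, NARS1 and YARS2.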

Additional observations from a re-analysis of the deposited data

How the results depend on the processing

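The number of genes called over the whole table, 9 by default, was 49 with DESeq2, 94 with no filter on low counts, 28 with the length and GC correction, 36 with that correction and the replicate block, and 91 with 1 surrogate variable; leaving out each library gave 1 to 3154, with 3154 without vehicle replicate 1, 4 without vehicle replicate 2 and 1 without minocycline replicate 1 or 3. The count of cytosolic synthetases called, 0 by default, was 2 with library size scaling, limma-voom, at least 10 counts in every library, and the correction with the block; 1 with the correction alone; 5 with DESeq2 and with no filter; 9 with 1 surrogate variable; and 0 to 12 with each library left out (12 without vehicle replicate 1, otherwise 0). For mitochondrial synthetases the count was 1 (VARS2) with no filter, the replicate block, the correction with the block and 1 surrogate variable, and 0 to 2 with each library left out (2 without vehicle replicate 1, 1 without vehicle replicate 3). For partner genes it was 1 with DESeq2, no filter and 1 surrogate variable, and 0 to 2 with each library left out (2 without vehicle replicate 1). The cytosolic median of 0.48 was 0.55 with library size scaling, 0.40 with the correction with or without the block, 0.42 with 1 surrogate variable, and 0.45 to 0.54 with each library left out. Library size scaling moved the median of all genes to 0.08. The mitochondrial median of 0.00 was 0.07 with library size scaling, -0.07 with the correction with or without the block, and -0.06 to 0.00 with each library left out. The cause of these shifts was not tested.

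Across 577 single-gene values for 34 members, 530 stayed on their side of the threshold, 47 passed where the default did not, and 0 changed direction with a call. The median change in the paralogue ratio stayed within the spread between libraries in every setting run. It was 0.48 with the replicate block, but a block cannot move a difference of means in this balanced design. Scaling cannot move a ratio of counts within a library either, so neither is a check on it. The block alone changed no call of a synthetase other than VARS2. Added to the length and GC correction, the block changed those of VARS2 and CARS1. GARS1 and MARS1 passed in 7 and 8 of 17 alternatives, and CARS1 in 6. Their adjusted p ran to 0.566, 0.585 and 0.815. VARS1, VARS2 and SARS2 had few counts, which limits the precision of their values; why was not tested.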
